A study of Mus musculus with 24 samples.

Results

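The interaction of the aSYN and Hsp70 genotypes was read from whole-brain RNA of 4-month-old mice on 24 Affymetrix arrays, which are all 24 arrays of the series. Per the labels, 6 samples were wild type (wt), 6 carried aSYN only, 6 carried Hsp70 only and 6 carried both (aSYN/Hsp70), and the groups were taken from the sample titles. The labels do not spell out aSYN, read here as alpha-synuclein, and name neither the strain, the promoters nor how the genotypes were made. Whether each sample is a different animal is not said, and the p-values then cover only how these samples spread, which may be technical. Their interaction, in log2 units, subtracts the difference aSYN minus wt from the difference aSYN/Hsp70 minus Hsp70, and it is 0 where the effects of the genotypes add. It was estimated for every probe set, and 34958 of the 45101 probe sets carried 1 gene symbol. Of these, 23590, in 12929 genes, were bright enough to be tested, among 27022 probe sets tested in all. The mouse gene for alpha-synuclein was not analysed here.

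Alpha-synuclein is a small protein of presynaptic terminals that binds synaptic vesicles, and its aggregates mark Parkinson's disease. HSP70 proteins are chaperones that bind exposed hydrophobic stretches of client proteins, help them refold with the aid of DNAJ and BAG co-chaperones, and pass others to the proteasome or lysosome. The design asks whether the brain's response to aSYN depends on Hsp70.

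No gene passed the test. Of 27022 probe sets, 0 had an interaction with an adjusted p under 0.05 (limma, Benjamini-Hochberg; 0%), while 2198 had an unadjusted p under 0.05 (8.13%), against a chance expectation of 1351. The smallest adjusted p was 0.0516 and was shared by 7 probe sets, those of Ip6k1, Sort1, Btbd3, Prepl, Adarb1, Cnr1 and Asb7. At the looser threshold of an adjusted p under 0.10 there were 27 probe sets (0.0999%) in 26 genes, and 25 of the 27 interactions were positive. Among the 2198, positive and negative values were closer in number, with 1173 (4.34% of those tested) against 1025 (3.79%). The median interaction of all tested probe sets was -0.02 and the median size without sign was 0.20, smaller than the median standard error of 0.25. An interaction of more than 1 log2 unit in either direction was found in 3.57% of probe sets.

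Array medians ran from 458 to 893 intensity units, and each array's median rank correlation to the rest (Spearman) from 0.836 to 0.939. The arrays of lowest weight in limma were aSYN/Hsp70 replicates 4 (0.124) and 3 (0.394) and Hsp70 replicates 3 (0.251) and 6 (0.332). By Y-linked and Xist probe sets, 4 of 6 wt, 4 of 6 aSYN, 3 of 6 Hsp70 and 2 of 6 aSYN/Hsp70 samples were female. Not every gene of the brain gene lists had a named probe set. Of those with one, all 24 synaptic vesicle and release, 16 oligodendrocyte and 14 astrocyte genes were bright enough to be tested. Only 8 of 12 dopamine neuron, 8 of 10 olfactory bulb and 8 of 10 cerebellar genes with one were.

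The 30 genes with the smallest interaction p shared a shape. The interaction was positive in 28 of them and negative in 2, Mcmbp and Adamts20. In all 28 the level was lower in aSYN than in wt and higher in aSYN/Hsp70 than in Hsp70, and in the other two both differences had the opposite sign. For the 28, the aSYN difference without Hsp70 had a median of -0.49 log2 units (from -0.87 to -0.21) and that with Hsp70 a median of 0.30 (from 0.12 to 1.61). The mean was lowest in aSYN for 27 of the 30 and highest in aSYN/Hsp70 for 22. These 30 were chosen by the interaction, so the shape describes them and supports nothing. Taken alone, the aSYN difference without Hsp70 passed for 1 of the 30, Sort1 (adjusted p = 0.038, in a comparison with 0.0037% called), and that with Hsp70 for 0 (0% called). The difference of aSYN/Hsp70 from aSYN, which shares both groups with the interaction, passed for 28 (0.718% called).

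**Figure D1:**
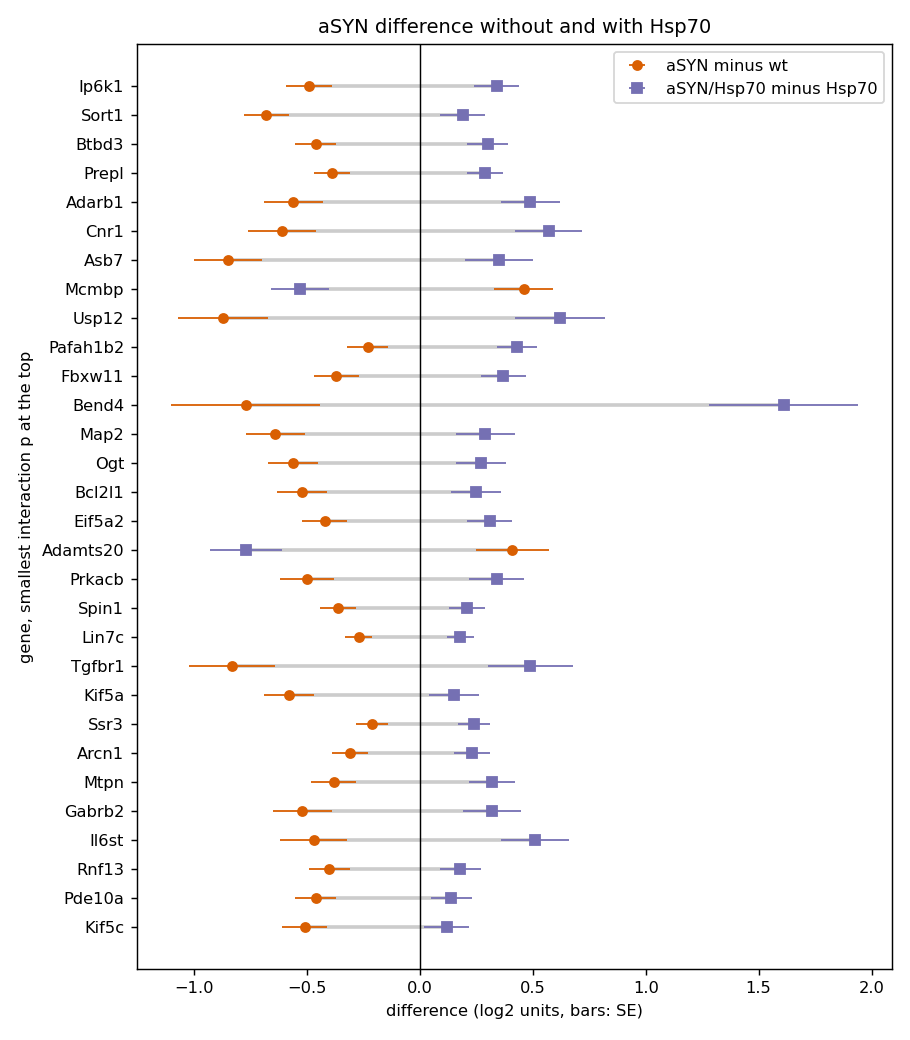
The difference between aSYN and wt (circles) and between aSYN/Hsp70 and Hsp70 (squares), in log2 units with bars of 1 SE, for the 30 genes with the smallest interaction p, smallest at the top; a grey line joins the pair. Circles lie below 0 and squares above it for 28 genes, and the other way round for Mcmbp and Adamts20.

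The genes at the top of the order included sorting and membrane traffic proteins. Sort1 encodes sortilin, a receptor that carries proteins from the Golgi to endosomes and lysosomes and takes up proneurotrophins. Its probe set, 1423363_at, had a low, a median and a high of 11.54, 11.76 and 11.99 log2 units in wt, of 10.98, 11.06 and 11.13 in aSYN, of 11.21, 11.36 and 11.89 in Hsp70, and finally of 11.53, 11.65 and 11.76 in aSYN/Hsp70. All 6 aSYN samples lay below every other sample, and the aSYN/Hsp70 samples overlapped both wt and Hsp70. Had the genotype differences added, the aSYN/Hsp70 mean would have been 10.78, against a measured 11.65 ± 0.09 (SD, n = 6). The interaction was 0.87 (SE 0.15, 95% interval 0.56 to 1.18, limma adjusted p = 0.0516). Arcn1, the delta subunit of the COPI coat, stood at 0.53 (SE 0.11, adjusted p = 0.0817), and Ssr3, a subunit of the translocon-associated complex of the ER, at 0.45 (SE 0.09, adjusted p = 0.0817). Pafah1b2, a catalytic subunit of a brain acetylhydrolase of platelet-activating factor, stood at 0.67 (SE 0.13, adjusted p = 0.0662). Lin7c, a scaffold of synaptic and epithelial junctions, stood at 0.45 (SE 0.09, adjusted p = 0.0671).

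Several members take part in signalling. Ip6k1 makes inositol pyrophosphates from inositol hexakisphosphate. At probe set 1422968_at its low, median and high were 11.42, 11.52 and 11.77 in wt, 10.72, 11.07 and 11.33 in aSYN, 11.28, 11.43 and 11.70 in Hsp70, with 11.60, 11.77 and 11.98 in aSYN/Hsp70. All aSYN samples lay below all wt samples and overlapped the lower end of Hsp70, while the aSYN/Hsp70 samples overlapped wt and reached higher. The interaction was 0.82 (SE 0.14, limma adjusted p = 0.0516), the smallest p of all probe sets. Cnr1, the presynaptic cannabinoid receptor CB1, had a low, median and high of 10.39, 10.51 and 11.04 in wt, 9.64, 9.94 and 10.33 in aSYN, 9.92, 10.42 and 10.66 in Hsp70, with 10.65, 10.89 and 11.29 in aSYN/Hsp70. Its interaction was 1.18 (SE 0.21, adjusted p = 0.0516). The aSYN samples lay below all wt samples, and aSYN and Hsp70 samples overlapped.

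Of the cAMP pathway, Prkacb, a catalytic subunit of protein kinase A, stood at 0.84 (SE 0.16, adjusted p = 0.0666). Pde10a, the striatal phosphodiesterase that breaks down cAMP and cGMP, stood at 0.60 (SE 0.13, adjusted p = 0.107). Its mean was 13.66 ± 0.13 in wt, 13.20 ± 0.19 in aSYN, 13.39 ± 0.11 in Hsp70, with 13.53 ± 0.15 in aSYN/Hsp70 (SD, n = 6). Wt was thus the highest group for Pde10a, and the Hsp70 groups lay between. Gabrb2, a beta subunit of the GABA-A receptor, had an interaction of 0.85 (SE 0.18, adjusted p = 0.0970). Tgfbr1, the type I receptor of TGF-beta, had one of 1.32 (SE 0.27, adjusted p = 0.0769) and Il6st, the shared gp130 receptor chain of the interleukin 6 family, one of 0.98 (SE 0.21, adjusted p = 0.107).

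Dendrites, axons and their motors were represented by Map2, Kif5a, Kif5c and Btbd3. Btbd3, which steers dendrite orientation in the cortex, had means of 12.55 ± 0.12 in wt, 12.09 ± 0.12 in aSYN, 12.46 ± 0.19 in Hsp70, with 12.76 ± 0.15 in aSYN/Hsp70 (SD, n = 6). All aSYN samples lay below all wt samples, and all aSYN/Hsp70 samples above all aSYN samples. Its interaction was 0.76 (SE 0.13, limma adjusted p = 0.0516). Map2, the microtubule-associated protein of dendrites, was measured at 12.75 ± 0.24 in wt, 12.11 ± 0.24 in aSYN, 12.53 ± 0.17 in Hsp70, with 12.82 ± 0.20 in aSYN/Hsp70 (SD, n = 6). Its interaction was 0.93 (SE 0.18, adjusted p = 0.0663), and another Map2 probe set also had an adjusted p under 0.10 (0.85, SE 0.17, adjusted p = 0.0671). Kif5a and Kif5c encode heavy chains of kinesin 1, the motor of anterograde axonal transport. Kif5a stood at 0.73 (SE 0.15, adjusted p = 0.0817) and Kif5c at 0.63 (SE 0.14, adjusted p = 0.107). In both, as in Sort1 and Pde10a, wt was the highest group.

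A further set acts in ubiquitin and glycosylation pathways. Asb7, a substrate receptor of a cullin 5 ubiquitin ligase, had a low, median and high of 9.36, 9.42 and 9.64 in wt, 8.07, 8.60 and 9.03 in aSYN, 8.42, 9.10 and 9.39 in Hsp70, with 9.14, 9.34 and 9.72 in aSYN/Hsp70. Its interaction was 1.21 (SE 0.22, limma adjusted p = 0.0516), and 6 of 6 aSYN samples lay below all wt samples while Hsp70 samples spread over both. Usp12, a deubiquitinase, stood at 1.49 (SE 0.28, adjusted p = 0.0657). Fbxw11, an F-box protein that targets beta-catenin and I-kappa-B, stood at 0.74 (SE 0.14, adjusted p = 0.0662), and Rnf13, an endosomal and lysosomal ubiquitin ligase, at 0.59 (SE 0.13, adjusted p = 0.107). Ogt, the enzyme that attaches O-linked N-acetylglucosamine to proteins, stood at 0.83 (SE 0.16, adjusted p = 0.0663).

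RNA and translation factors came next. Adarb1 (ADAR2) edits adenosine to inosine, among others at the Q/R site of the glutamate receptor subunit GluA2. Its low, median and high were 10.08, 10.14 and 10.34 in wt, 9.23, 9.61 and 10.03 in aSYN, 9.74, 9.87 and 9.97 in Hsp70, with 10.07, 10.24 and 10.93 in aSYN/Hsp70. Both single genotypes lay below all wt samples, and the aSYN/Hsp70 samples overlapped wt, from just below its lowest sample to above its highest. The interaction was 1.05 (SE 0.19, limma adjusted p = 0.0516). Eif5a2, a paralogue of the hypusinated translation factor eIF5A, stood at 0.72 (SE 0.14, adjusted p = 0.0663). Prepl, a serine hydrolase whose loss causes a congenital myasthenic syndrome, averaged 14.43 ± 0.09 in wt, 14.04 ± 0.09 in aSYN, 14.23 ± 0.21 in Hsp70, with 14.51 ± 0.08 in aSYN/Hsp70 (SD, n = 6), an interaction of 0.67 (SE 0.12, adjusted p = 0.0516).

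Bcl2l1, which encodes the survival protein BCL-XL, stood at 0.77 (SE 0.15, adjusted p = 0.0663), Spin1, a reader of methylated histones, at 0.57 (SE 0.11, adjusted p = 0.0671) and Mtpn, myotrophin, at 0.70 (SE 0.14, adjusted p = 0.0858). Bend4 had the largest interaction of the 30, 2.38, but also the largest error (SE 0.46, limma adjusted p = 0.0663), and its shape differed. Its mean was lowest in Hsp70, at 7.62 ± 0.61 against 9.10 ± 0.53 in wt, 8.33 ± 0.74 in aSYN and 9.22 ± 0.41 in aSYN/Hsp70 (SD, n = 6). Negative interactions were found for Mcmbp, a binding partner of the replicative MCM helicase (-0.99, SE 0.18, adjusted p = 0.0657), and for Adamts20, a secreted metalloprotease needed for melanoblast survival (-1.17, SE 0.23, adjusted p = 0.0666). Mcmbp averaged 10.15 ± 0.11 in wt, 10.61 ± 0.23 in aSYN, 10.49 ± 0.33 in Hsp70, with 9.96 ± 0.13 in aSYN/Hsp70 (SD, n = 6), so the double genotype was the lowest and aSYN the highest.

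**Figure D2:**
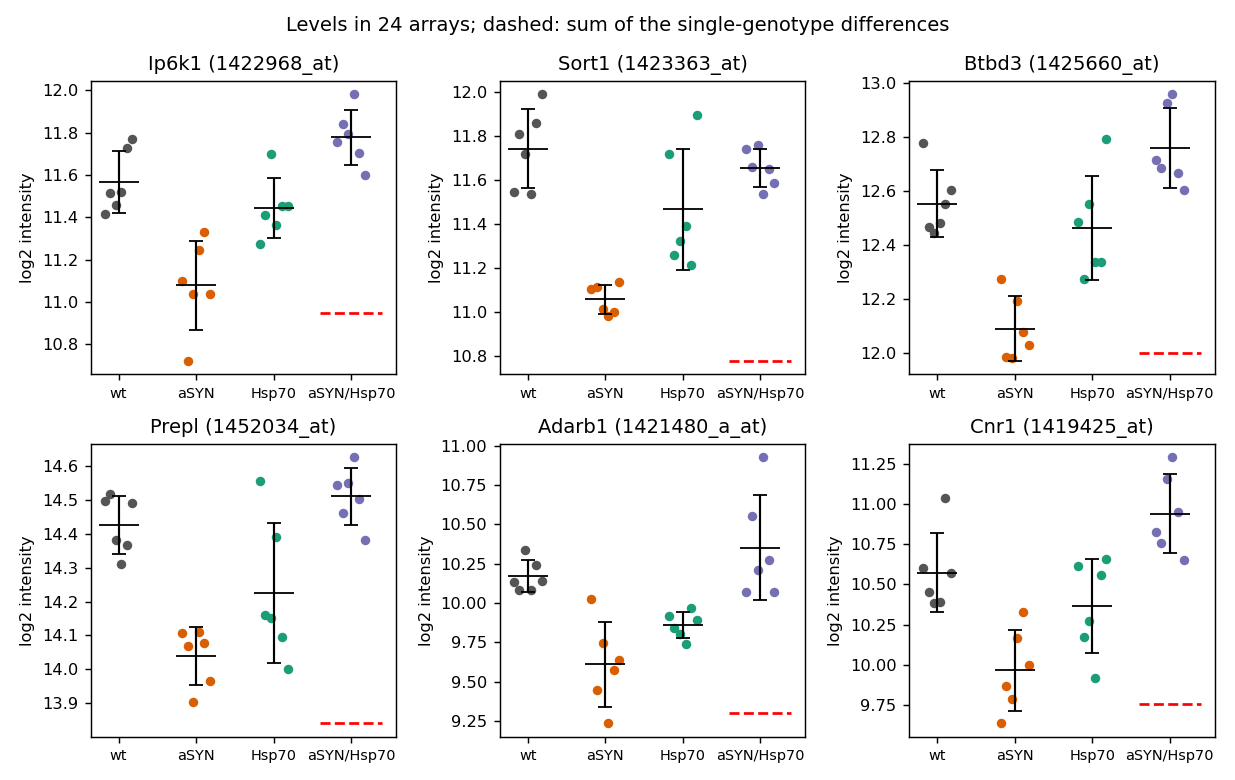
Log2 intensity of the 6 genes with the smallest interaction p in each of the 24 arrays, by group, with bars for the mean and SD of 6 samples; the dashed line marks the aSYN/Hsp70 mean that would result if the single-genotype differences from wt added. In each panel all aSYN/Hsp70 samples lie above that line, which is 10.78 for Sort1 and 10.95 for Ip6k1, and aSYN is the lowest group.

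Other probe sets of the same genes were then read. Of the 30 genes, 29 had at least 1 other tested probe set, 62 in all, of which 41 had an interaction of the same sign. An unadjusted p under 0.05 was found for 14 in that direction, against 2 in the opposite one. Over all tested probe sets, 4.34% were positive and 3.79% negative at that threshold. The 62 read the same genes on the arrays by which these were chosen, so their agreement is no separate evidence. For 26 of the 30, the probe set of highest mean signal of the gene was not the one with the smallest p. In these 26 the interaction had a median size of 0.83 at the chosen probe set, and of 0.03 in the same direction at the one of highest signal, where 15 of 26 had the same sign. A smaller value there is partly implied, as the first was chosen for its p. Sort1 was at 0.08 (SE 0.11) at its probe set of highest signal, Ip6k1 at 0.12 (SE 0.13), Btbd3 at 0.04 (SE 0.15), Adarb1 at -0.04 (SE 0.17), Map2 at -0.06 (SE 0.14) and Kif5a at -0.08 (SE 0.11). Gabrb2 was at -0.45 there (SE 0.20), Asb7 at 0.01 (SE 0.14), Cnr1 at -0.06 (SE 0.26) and Tgfbr1 at -0.13 (SE 0.14). Mcmbp, at -0.99 at the chosen probe set, was at 0.16 (SE 0.12) at that of highest signal. Within Kif5c, a further probe set stood at -0.49 (SE 0.14), against 0.63 at the chosen one.

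In a few genes other probe sets gave nearer values. Pafah1b2 had positive values at all 4 tested probe sets (0.67, 0.54, 0.31 and 0.22), each with an unadjusted p under 0.05. Prepl stood at 0.67, 0.49 (SE 0.11, adjusted p = 0.107) and 0.12. Pde10a, where the chosen probe set was that of highest signal, stood at 0.73 (SE 0.18, adjusted p = 0.157) at another. For Lin7c, also chosen at its highest signal, another probe set stood at 0.78 (SE 0.18, adjusted p = 0.125), and for Rnf13 the one of highest signal stood at 0.36 (SE 0.16). Probe sets of highest and of lower signal were also counted across the array. At an adjusted p under 0.10 stood 3 of the 12929 probe sets of highest signal per gene (0.0232%) and 24 of the 10661 other named ones (0.225%). These all belong to the leading genes named above, so this count is no separate evidence of the contrast. An unadjusted p under 0.05 with a positive interaction was found in 2.83% of the first and 6.73% of the second, while negative ones were similar, at 3.43% and 3.27%. The unadjusted shares include the probe sets of the leading genes as well.

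**Figure D3:**
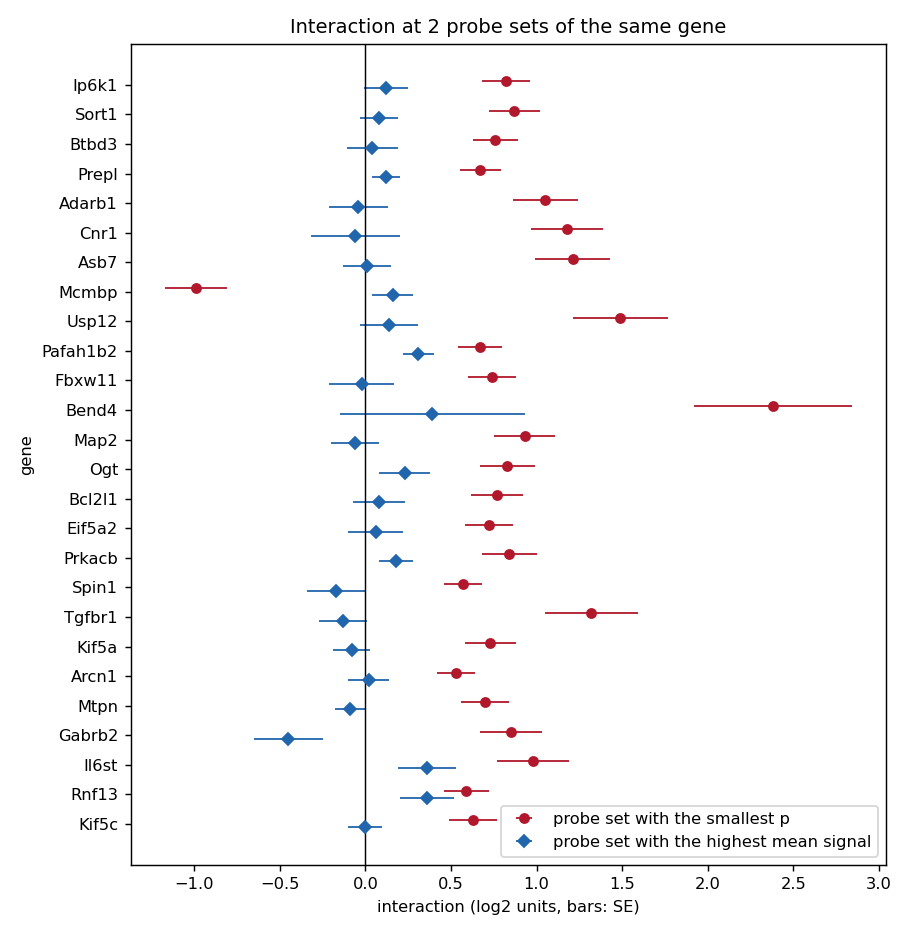
Interaction in log2 units, with bars of 1 SE, at the probe set with the smallest p (circles) and at the probe set of highest mean signal (diamonds), for the 26 genes in which these differ. Circles lie away from 0 by a median of 0.83, while most diamonds lie near 0; Gabrb2 stands at -0.45.

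For control transcripts, the signal at the 3' end minus that at the 5' end, which rises as RNA loses its 5' parts or is copied less far, differed between the groups in the same order as most of the 30 genes, turned around. Averaged over Actb, Gapdh, Pcx and Tfrc, it was 0.888 ± 0.132 log2 units in wt, 0.993 ± 0.124 in aSYN, 0.909 ± 0.176 in Hsp70, with 0.804 ± 0.161 in aSYN/Hsp70 (SD, n = 6), an interaction of -0.21 (SE 0.12). The groups overlapped. Pcx carried most of it, with an interaction of -0.63 (SE 0.21), and ran from 1.76 to 2.50 in aSYN and from 0.98 to 1.86 in aSYN/Hsp70. Actb stood at 0.01 (SE 0.04), Gapdh at -0.05 (SE 0.04) and Tfrc at -0.17 (SE 0.35). The group mean was thus highest in aSYN, where most of the 30 genes had their lowest mean, while the highest single array by the 4-transcript average was in Hsp70 (1.17). A fit with this averaged signal as a covariate was added after seeing the data. In it, 0 probe sets remained under an adjusted p of 0.10, with 1687 at an unadjusted p under 0.05. All 30 genes kept their sign, with a median size of 0.759 against 0.796. They were chosen by their interaction on these arrays, and the covariate averages transcripts with unlike group differences, so this decides nothing. Whether RNA quality bears on the 30 genes was not tested.

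**Figure D4:**
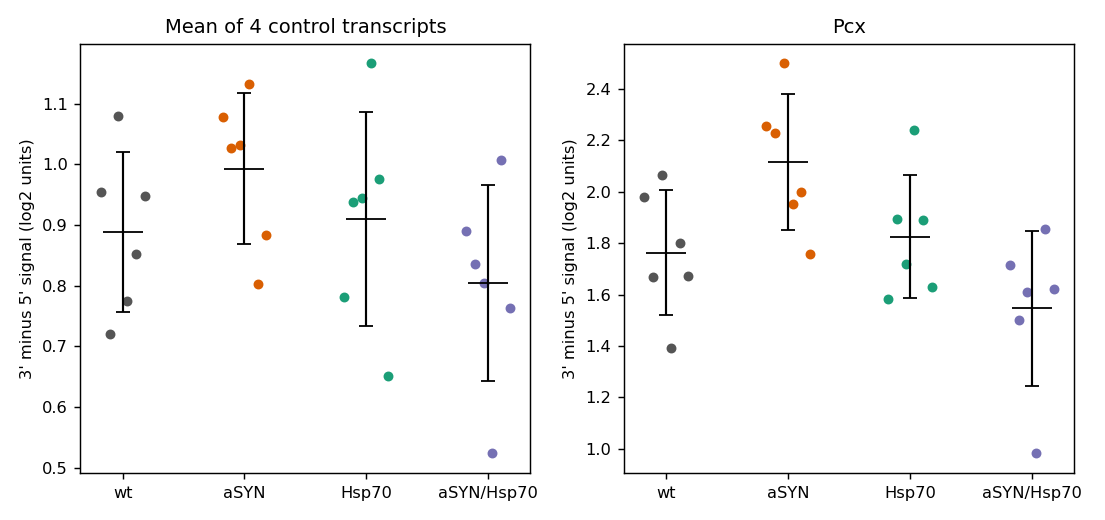
The 3' minus 5' signal of control probe sets, in log2 units, in each of the 24 arrays by group, as the mean of 4 transcripts (left) and for Pcx alone (right), with bars for the mean and SD of 6 samples. For Pcx the aSYN arrays run from 1.76 to 2.50 and the aSYN/Hsp70 arrays from 0.98 to 1.86.

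The mouse Hsp70 genes were read next. Hspa1a and Hspa1b encode the HSP70 proteins induced by stress. Whether these probe sets would detect an introduced Hsp70 is not known here, and they are no check of the genotype. Hspa1a had an interaction of -0.41 (SE 0.60, limma adjusted p = 0.896), with aSYN/Hsp70 replicate 4 at 7.86 and the other aSYN/Hsp70 samples up to 11.53. Without that sample it was 0.145, and with array weights 0.0625. Hspa1b stood at 0.24 (SE 0.50), 0.41 (SE 0.59) and 0.01 (SE 0.46) at its 3 probe sets (adjusted p = 0.928, 0.893 and 0.999). The first of these turned to -0.0206 without Hsp70 replicate 3 and the last changed sign in 16 of its 34 alternatives.

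Promoters of the 30 genes were searched for a 2-unit part of the heat shock element. The whole element, which is longer, is the site of the factor HSF1 that drives Hspa1a and Hspa1b. The motif was GAANNTTC or TTCNNGAA, each of which reads the same on both strands, and the 2 forms can overlap. The window was the 250 bases before each annotated start (RefSeq, GRCm38.p6). Of the 30 genes, 27 had a promoter in the table, 45 promoters in all, and 13 of the 45 (28.9%) held the motif, in 11 of the 27 genes (40.7%). Among genes with a tested probe set, 9.96% of 13490 promoters and 12% of 10462 genes held it, and 12.8% of all 32851 promoters. The median GC content was 58.8% in promoters of the 30 genes and 59.6% in those of tested genes. The 11 genes were Prepl, Adarb1, Pafah1b2, Eif5a2, Prkacb, Tgfbr1, Ssr3, Mtpn, Il6st, Pde10a and Kif5c. The table's overlapping Prepl promoters hold 1 and the same site, which is counted in both. The leading genes had more promoters per gene (45 for 27 genes) than tested genes (13490 for 10462), which raises their share by gene. A match describes these letters only, the genes were chosen by their interaction, and no test was made. Shown are Hspa1a as the known target, at chr17:34972157-34972406 on the minus strand, and the 2 genes of smallest p that held the motif, Prepl at chr17:85090268-85090517 and Adarb1 at chr10:77418274-77418523, both on the minus strand. Each is written 5' to 3' with the motif in capitals.
Hspa1a: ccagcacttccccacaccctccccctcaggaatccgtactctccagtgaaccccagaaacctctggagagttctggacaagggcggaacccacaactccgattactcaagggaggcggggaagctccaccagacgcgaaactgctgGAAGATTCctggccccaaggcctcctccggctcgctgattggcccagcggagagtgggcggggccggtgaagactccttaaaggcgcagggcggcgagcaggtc
Prepl: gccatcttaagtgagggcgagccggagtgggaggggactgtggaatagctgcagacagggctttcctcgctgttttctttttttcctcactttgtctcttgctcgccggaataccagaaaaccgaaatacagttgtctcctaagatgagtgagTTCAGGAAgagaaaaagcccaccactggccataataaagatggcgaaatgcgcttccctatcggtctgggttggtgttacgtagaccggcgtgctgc
Adarb1: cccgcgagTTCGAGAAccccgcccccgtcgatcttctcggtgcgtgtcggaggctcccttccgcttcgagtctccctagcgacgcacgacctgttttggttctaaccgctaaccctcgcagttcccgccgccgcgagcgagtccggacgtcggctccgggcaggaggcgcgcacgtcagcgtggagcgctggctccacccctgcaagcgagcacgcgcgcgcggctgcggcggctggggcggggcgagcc
The motif began 104 bases before the start in Hspa1a, 97 in Prepl and 242 in Adarb1.

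Gene groups were described at the probe set of highest signal of each gene, where the median interaction was -0.02 over 12929 genes and 6.26% had an unadjusted p under 0.05. In 34 lists with 572 genes, 508 were measured. Of these, 0 had an adjusted p under 0.10, 8 had a positive and 14 a negative interaction at an unadjusted p under 0.05, together 4.33%, a share no higher than that of all genes. Medians were positive in 14 lists and negative in 20. Over the 12929 genes 46.1% of interactions were positive, so negative was the commoner sign before any list was drawn. None of the lists was tested as a set.

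**Figure D5:**
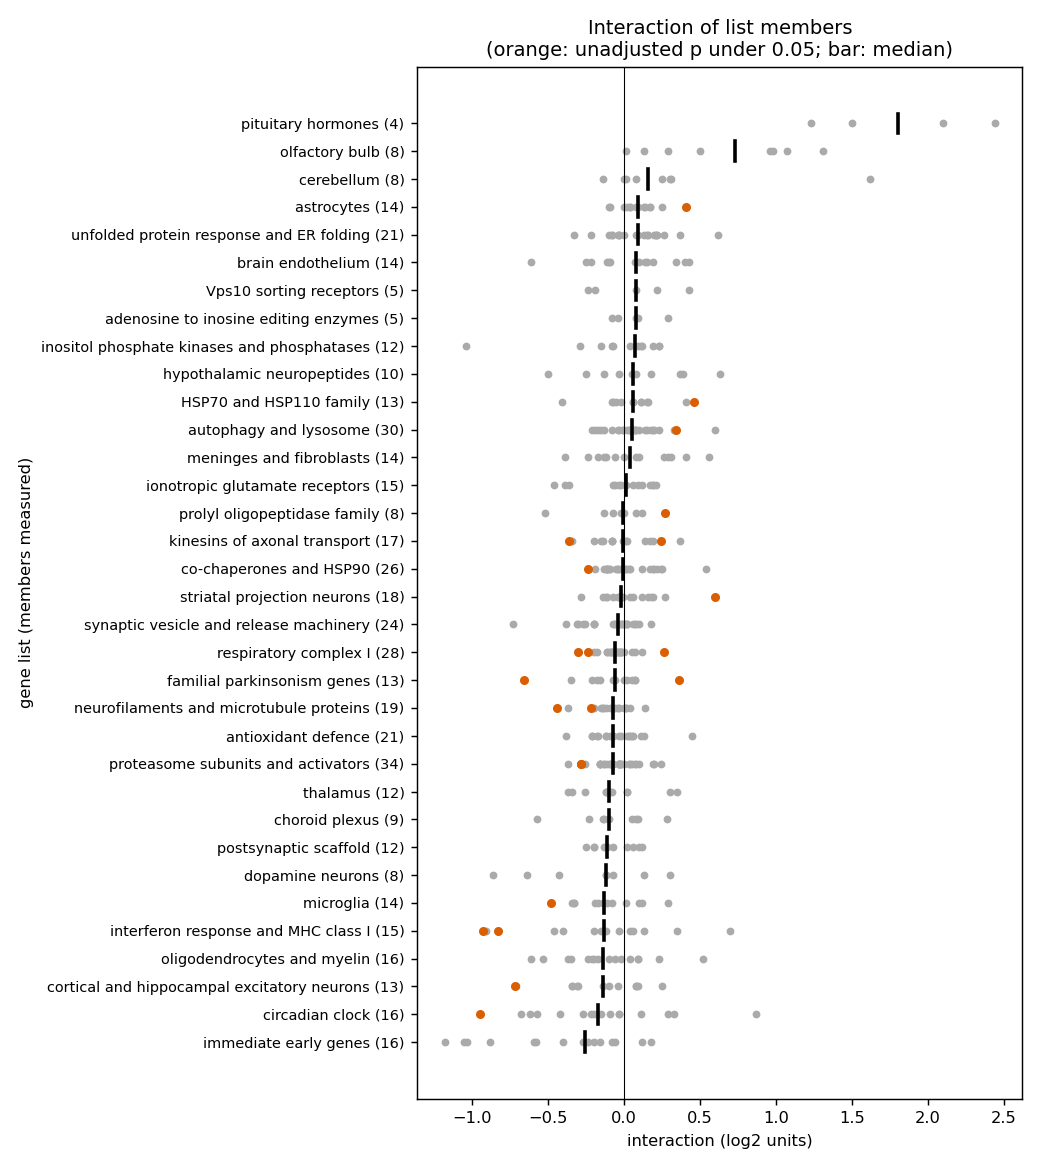
Interaction in log2 units of each measured member of the 34 lists (points, number measured in brackets), at the probe set of highest signal, ordered by the list's median (bar); orange points have an unadjusted p under 0.05. Pituitary genes (median 1.80) and olfactory bulb genes (0.73) lie to the right with no orange point, and most other medians lie near 0.

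Chaperone and degradation genes showed small values. Of the HSP70 and HSP110 family, 8 of 13 measured members were positive (median 0.06, but -0.02 without quantile normalization), and Hspa13, an HSP70 of the endoplasmic reticulum, stood at 0.46 (SE 0.21, limma adjusted p = 0.594). Of co-chaperones and HSP90, 12 of 26 were positive (median -0.01, but 0.01 without the 4 arrays of low weight), with Bag1, a nucleotide exchange factor of HSP70, at -0.24 (SE 0.10, adjusted p = 0.562). Of unfolded protein response genes, 13 of 21 were positive (median 0.09), and 0 had an unadjusted p under 0.05. Proteasome genes were negative for 24 of 34 (median -0.07), with the ATPase subunits Psmc2 (-0.28, SE 0.10) and Psmc4 (-0.28, SE 0.10) at adjusted p = 0.477 and 0.503. Psmc2 averaged 14.73 ± 0.06 in wt, 14.93 ± 0.10 in aSYN, 14.75 ± 0.07 in Hsp70, with 14.66 ± 0.16 in aSYN/Hsp70 (SD, n = 6), so aSYN was here the highest group. Autophagy and lysosome genes were positive for 20 of 30 (median 0.05, 0 without quantile normalization), with Atp6v1b2, a subunit of the vacuolar proton pump, at 0.34 (SE 0.12, adjusted p = 0.426).

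Mitochondrial and parkinsonism genes were mixed. Complex I subunits were negative for 23 of 28 (median -0.06), with Ndufs5 (-0.30, SE 0.11) and Ndufb3 (-0.24, SE 0.10) on that side and Ndufb8 (0.26, SE 0.10) on the other. Antioxidant genes were negative for 13 of 21 (median -0.07, 0 without the 4 arrays of low weight). Of the familial parkinsonism genes, 6 of 13 were positive (median -0.06), with Fbxo7, an F-box protein of mitophagy, at 0.36 (SE 0.11, limma adjusted p = 0.375) and the mitophagy kinase Pink1 at -0.66 (SE 0.29, adjusted p = 0.578). Fbxo7 averaged 12.23 ± 0.16 in wt, 12.14 ± 0.07 in aSYN, 12.08 ± 0.13 in Hsp70, with 12.35 ± 0.11 in aSYN/Hsp70 (SD, n = 6). Pink1 averaged 14.24 ± 0.56, 14.85 ± 0.20, 14.25 ± 0.35 and 14.20 ± 0.27 in the same order, with a wide spread in wt.

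Relatives of the leading genes had small or mixed values. Of the Vps10 receptors, 3 of 5 were positive (median 0.08, with -0.01 without quantile normalization and -0.09 without the 4 arrays of low weight). Beside Sort1, the sorting receptor of amyloid precursor protein Sorl1 stood at 0.22 (SE 0.22), Sorcs1 at -0.24 (SE 0.24), Sorcs2 at -0.19 (SE 0.15) and Sorcs3 at 0.43 (SE 0.33), each with an error about as large as the value. Inositol phosphate enzymes were positive for 7 of 12 (median 0.07), and Ip6k2, a close paralogue of Ip6k1, stood at 0.23 (SE 0.23) and -0.07 (SE 0.18) at its 2 probe sets. Of the editing enzymes, Adar (ADAR1) stood at 0.08 (SE 0.11) at its probe set of highest signal and at 0.63 (SE 0.17, limma adjusted p = 0.244) at another, and Adarb2, the brain member without known editing activity, at 0.29 (SE 0.34). Kinesins were positive for 7 of 17 (median -0.01), with Kif3c (0.24, SE 0.10) and Kif21b (-0.36, SE 0.17) at an unadjusted p under 0.05. Neurofilament and microtubule genes were negative for 14 of 19 (median -0.07), with the plus-end protein Mapre1 at -0.44 (SE 0.18) and Stmn4 at -0.22 (SE 0.10). Of the prolyl oligopeptidase family, 3 of 8 were positive (median -0.01), with the potassium channel partner Dpp6 at 0.27 (SE 0.11). Ionotropic glutamate receptors, among them the targets of ADAR2, were positive for 8 of 15 (median 0.01, but -0.12 without the 4 arrays), and 0 had an unadjusted p under 0.05.

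Synaptic vesicle genes were negative for 16 of 24 (median -0.04) and postsynaptic scaffold genes for 8 of 12 (median -0.11), with 0 members of either at an unadjusted p under 0.05. Probe sets of lower signal again differed from these. Over all lists, the leading genes included, 34 such probe sets had an unadjusted p under 0.01, 29 positive and 5 negative. The number of such probe sets tested in the lists is not given here, so this is no share. Over the whole array, probe sets of lower signal also leaned positive, with 6.73% positive and 3.27% negative at an unadjusted p under 0.05. The vesicle calcium sensor Syt1 had 2 with positive values (0.51, SE 0.14, and 0.53, SE 0.15; limma adjusted p = 0.255 and 0.287), while Cplx2, the complexin that clamps vesicle fusion, had 1 with a negative value (-0.30, SE 0.10, adjusted p = 0.426). The scaffold Dlg1 had 1 that was positive (0.54, SE 0.15, adjusted p = 0.254). Dnajc6, the neuronal auxilin that uncoats clathrin vesicles with HSP70, had 1 at 0.51 (SE 0.11, adjusted p = 0.107), and Ids, a lysosomal sulfatase, 2 (0.90, SE 0.20, adjusted p = 0.107, and 0.83, SE 0.26, adjusted p = 0.375). On the negative side stood 1 of Ndufs8, a subunit of complex I (-0.44, SE 0.15, adjusted p = 0.431), and 1 of Arpp21, a striatal phosphoprotein (-1.01, SE 0.34, adjusted p = 0.407). These genes were chosen after their values were seen.

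Among cell type and region markers, striatal projection neuron genes were positive for 8 of 18 (median -0.02, but 0.06 with array weights and 0.07 without the 4 arrays of low weight), and Pde10a was its only member with an unadjusted p under 0.05 there. In whole brain, fewer cells of a type and less RNA per cell cannot be told apart. Astrocyte genes were positive for 12 of 14 (median 0.09), but for 8 of 14 without quantile normalization (median 0.06). The member of smallest p, the glutamate transporter Slc1a3, stood at 0.41 (SE 0.11, limma adjusted p = 0.249). Slc1a3 averaged 14.15 ± 0.14 in wt, 13.89 ± 0.06 in aSYN, 14.06 ± 0.15 in Hsp70, with 14.22 ± 0.09 in aSYN/Hsp70 (SD, n = 6). It stood lowest in aSYN like most leading genes, but it and they were chosen by the interaction p. Microglia genes were negative for 10 of 14 (median -0.13, but 0.02 without the 4 arrays), with complement C1qb at -0.48 (SE 0.22). Oligodendrocyte genes were negative for 11 of 16 (median -0.14, but 0.02 without the 4 arrays) and dopamine neuron genes for 6 of 8 (median -0.12). Cortical and hippocampal genes were negative for 9 of 13 (median -0.14), with the upper-layer factor Cux2 at -0.72 (SE 0.30, adjusted p = 0.547). Their median was -0.32 without the 4 arrays of low weight (11 of 13 negative), -0.25 with array weights, -0.31 without aSYN replicate 1 or without Hsp70 replicate 3 and -0.22 without Hsp70 replicate 6.

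The largest list medians belonged to tissue at the edge of a brain dissection. Of the 9 pituitary hormone genes listed, 8 had a named probe set and only 4 were bright enough to be tested (3 without the 4 arrays of low weight). These 4 were all positive, with a median of 1.80. It ran from 1.33 to 1.84 over the other settings, and from 1.09, without wt replicate 5, to 2.27 with 1 array left out. Gh stood at 2.10 (SE 1.61), Prl at 2.44 (SE 2.01) and Lhb at 1.23 (SE 0.63). Of the 4 genes, 0 had an unadjusted p under 0.05, but 1 with array weights and 1 without quantile normalization. Gh averaged 10.76 ± 3.00 in wt, 9.07 ± 0.44 in aSYN, 9.65 ± 0.40 in Hsp70, with 10.06 ± 2.76 in aSYN/Hsp70 (SD, n = 6), so wt and aSYN/Hsp70 samples spread widely. Olfactory bulb genes were positive for 8 of 8 (median 0.73), with the mitral cell factor Eomes at 1.31 (SE 0.77), Doc2g at 0.98 (SE 0.58), Cdhr1 at 1.07 (SE 0.82) and Reln at 0.29 (SE 0.18), and again 0 at that threshold, but 3 with array weights and 2 with the 3' minus 5' covariate. The brightness filter took the mean of all arrays, so a gene high in a few samples could pass it through these samples. Genes of 1 tissue can also vary together, so 4 of 4 and 8 of 8 are not counts of separate observations. The part of both lists in the values of the 30 genes was not tested. Smaller medians were found for choroid plexus (-0.10, 4 of 9 positive), thalamus (-0.10, 4 of 12), cerebellum (0.16, 7 of 8, but -0.04 with array weights and -0.13 without wt replicate 1), hypothalamus (0.06, 6 of 10, from -0.14 to 0.25 with 1 array left out), endothelium (0.08, 8 of 14, but -0.08 with array weights) and meninges (0.04, 8 of 14, from -0.06 to 0.14 with 1 array left out).

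Genes that respond to neuronal activity and time of day were mostly on the negative side. Over all genes 46.1% were positive, so negative was the commoner sign there too. Immediate early genes were negative for 14 of 16 (median -0.26), with Arc at -1.18 (SE 0.82), Npas4 at -1.03 (SE 0.59), Junb at -0.88 (SE 0.45) and Dusp1 at -0.59 (SE 0.37), and 0 had an unadjusted p under 0.05. Their median was -0.45 with the 3' minus 5' covariate, where 2 members reached that threshold, as 1 did without quantile normalization. It was -0.47 without aSYN replicate 5, -0.43 without Hsp70 replicate 4, -0.41 without aSYN/Hsp70 replicate 4 and -0.17 without aSYN/Hsp70 replicate 5. Clock genes were negative for 12 of 16 (median -0.17), with the repressor Ciart at -0.95 (SE 0.36, limma adjusted p = 0.505), Per1 at -0.62 (SE 0.32) and Dbp at -0.68 (SE 0.35). Ciart averaged 10.61 ± 0.37 in wt, 11.45 ± 0.44 in aSYN, 10.67 ± 0.62 in Hsp70, with 10.55 ± 0.35 in aSYN/Hsp70 (SD, n = 6), so the mean was highest in aSYN. Interferon and MHC class I genes were negative for 10 of 15 (median -0.13), with B2m, the light chain of MHC class I, at -0.83 (SE 0.29, adjusted p = 0.440) and the immunoproteasome subunit Psmb9 at -0.93 (SE 0.36, adjusted p = 0.508). B2m averaged 14.22 ± 0.43 in wt, 14.52 ± 0.29 in aSYN, 14.38 ± 0.18 in Hsp70, with 13.85 ± 0.49 in aSYN/Hsp70 (SD, n = 6), with overlapping ranges. The medians of these 3 lists were negative in every setting tried, but not steady in size. With 1 array left out, that of the clock genes ran from -0.24 to -0.11 (the latter without aSYN replicate 2 or aSYN/Hsp70 replicate 3 or 4). That of the interferon genes ran from -0.20, without Hsp70 replicate 3, to -0.02, without wt replicate 3, and was -0.08 or nearer 0 also without aSYN replicate 1, 3 or 5 or Hsp70 replicate 5 or 6.

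The count of calls depended on single arrays and on the treatment of unequal arrays. With limma array weights 81 probe sets were called at an adjusted p under 0.05, 64 positive and 17 negative, in 69 named genes. They included 26 of the 27 probe sets named at 0.10 without weights, and all 81 had the same sign in both fits. Both were nearly given, as the fits share their arrays and the 81 were chosen by p. With a trended and robust variance 24 were called, 19 of them among the 27. Without the 4 arrays of low weight 5 were called: Sort1 (0.95, SE 0.14, adjusted p = 0.0217), Btbd3 (0.77, SE 0.11, adjusted p = 0.0176), 9430015G10Rik (-1.18, SE 0.19, adjusted p = 0.0293; chosen after its value was seen) and 2 unnamed probe sets. Without quantile normalization 0 probe sets reached 0.10 and 1195 had an unadjusted p under 0.05 (4.42%), fewer than the 1351 expected by chance. The 30 genes, chosen by their p on these same arrays, kept their sign there with a median size of 0.742. With 1 array left out, 0 were called in 20 of 24 fits, and 14, 6, 2 and 30 without Hsp70 replicates 1, 3 and 6 and aSYN/Hsp70 replicate 6.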

How the data were processed

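Labelled RNA from 24 whole-brain samples was hybridised to Affymetrix mouse genome arrays. The deposited values are linear intensity values per probe set, scaled by the authors so that each array's trimmed mean (2% off each end) is 2500; no label or header used here names the software. An offset of 16 was added, log2 taken and the arrays quantile-normalized. The 40% of probe sets of lowest mean signal (18015) and 64 controls were left out, and 27022 were fitted over all 4 groups (lmFit, then eBayes, of limma 3.58.1 under R 4.3.3), with Benjamini-Hochberg adjustment. Genes were named from the platform annotation; 932 probe sets with several symbols and 9211 with none were not named. The text names the 30 genes with the smallest interaction p (each at its probe set of smallest p, beside its other tested ones), Hspa1a and Hspa1b, up to 4 members of a list by smallest p at the gene's probe set of highest signal, and members of the Vps10, editing and inositol phosphate lists. The members and lists were chosen with earlier results of these data known. No block for replicate number was used in the main fit. Same-numbered arrays had a correlation over 0.1 in 3 of 36 pairs, which does not settle whether the numbers pair the samples. The number of arrays limits the precision. Alternatives were the offset, the dim filter, quantile normalization, array weights, sex, a trended variance, a replicate block, arrays left out and, added after seeing the data, the 3' minus 5' signal. The fit was tested on simulated data. Figures used matplotlib 3.10.9.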

Additional observations from a re-analysis of the deposited data

Results flagged for a closer look

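In 8 of the 140 groups of 6 samples checked, the highest or lowest sample stood apart from the others by more than Dixon's 95% critical share of the group's range, and chance gives about 1 in 20. Cnr1 was high in wt replicate 5, at 11.04 log2 units. Ogt was low in wt replicate 3, at 12.44, and Adamts20 was low in Hsp70 replicate 3, at 9.38. Hspa1a was low in wt replicate 3 (10.25), in aSYN replicate 5 (10.75) and in aSYN/Hsp70 replicate 4 (7.86). Hspa1b, at probe set 1427127_x_at, was high in wt replicate 4 (13.66) and low in aSYN/Hsp70 replicate 2 (11.19).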

How the results depend on the processing

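All 30 leading genes kept the sign of their interaction in every alternative run. This was nearly given, as they were chosen for a small p on these same arrays. The counts did not hold. Against 0 interactions at an adjusted p under 0.05 (limma), 8 were found with the larger offset, 81 with array weights, 24 with a trended and robust variance and 5 without the 4 arrays of low weight, and from 0 to 30 with 1 array left out. Against 27 at 0.10, there were 0 without quantile normalization, without the dim filter and with the 3' minus 5' covariate, 183 with array weights and 17 without the 4 arrays. With 1 array left out this count ran from 0 to 63. It was 16 or lower without aSYN replicate 2, 3 or 6, Hsp70 replicate 2, 4 or 5, wt replicate 1, 2, 4, 5 or 6, or aSYN/Hsp70 replicate 1, 3 or 5, and 41 or higher without aSYN replicate 4, Hsp70 replicate 1 or 6, or aSYN/Hsp70 replicate 6. At an unadjusted p under 0.05 the count of 2198 was 1195 without quantile normalization and from 1826 to 2641 with 1 array left out.

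For aSYN against wt, the 1 call became 0 without quantile normalization, without the dim filter, with sex and with the 3' minus 5' covariate, 217 with array weights, 3 with the trended variance, 36 without the 4 arrays, and from 0 to 5 with 1 array left out. For aSYN/Hsp70 against Hsp70, 0 became 2 with the larger offset, 5 with array weights and 4 without the 4 arrays, and from 0 to 2 with 1 array left out. For aSYN/Hsp70 against aSYN, 194 became 3 without quantile normalization, 43 without the dim filter, 324 with array weights, 89 with sex, 369 with the trended variance, 102 without the 4 arrays, 0 with the 3' minus 5' covariate, and from 49 to 814 with 1 array left out. Of the 26 probe sets of highest signal, 15 had the same sign as the chosen one, 9 without quantile normalization and from 13 to 18 with 1 array left out.

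With a replicate block, 0 interactions passed at 0.05 and 10 at 0.10, aSYN against wt gave 2 calls and aSYN/Hsp70 against aSYN gave 70. The check made does not settle whether the numbers pair the samples. The median correlation was 0.0191 for same-numbered arrays and -0.0076 for different-numbered ones, and 8 of 24 arrays correlated best with their own number.

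Hspa1a turned to 0.0625 with array weights, 0.201 without the 4 arrays and 0.145 without aSYN/Hsp70 replicate 4, and ran from -0.588 to 0.145 with 1 array left out. Hspa1b turned to -0.0206 at probe set 1427126_at without Hsp70 replicate 3 (up to 0.439 with another array left out), and at 1452318_a_at to -0.0656 without quantile normalization, -0.11 with sex, -0.191 with the 3' minus 5' covariate and from -0.258 to 0.186 with 1 array left out. Its probe set 1427127_x_at, at 0.413, kept its sign but ran from 0.113 without wt replicate 4 to 0.69 without Hsp70 replicate 6. Sorcs3 (-0.0717) and Sorl1 (-0.0944) turned without the 4 arrays. The cause of these changes was not tested.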
